A study of Mus musculus with 16 samples.

Results

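The 10 genes described here, Fos, Fosb, Jun, Junb, Jund, Egr1, Atf3, Ier2, Nr4a1 and Dusp1, are immediate early and stress-response genes, chosen by symbol from the 53700 gene entries of the count files. They were measured in microglia, the resident macrophages of the brain, in 16 bulk RNA-seq libraries. Each of the 4 groups held 4 libraries: Ercc1 KO at 6 weeks, WT at 6 weeks, Ercc1 KO at 12 weeks and WT at 12 weeks. Ercc1 encodes a subunit of a DNA repair endonuclease. All mice came from a C57Bl6J and FVB cross. The labels say only "ko" or "wt" of the genotype and do not describe the Ercc1 allele or whether other cells of the mouse carried it. By their labels, both genotypes had 2 males and 2 females at 6 weeks, and both had 3 males and 1 female at 12 weeks. Brains were dissociated mechanically at 4 °C, and cells were sorted as DAPI-, CD11b high, CD45 intermediate and Ly6c-. One 12-week WT library carries a title that joins 2 numbers, 5_6, and the labels do not explain it. Nothing in the labels says more on whether libraries came from separate animals, so p-values measure the spread between these libraries.

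Immediate early genes are transcribed within minutes of a stimulus from factors that already sit in the cell, without new protein synthesis. MAP kinases acting on serum response factor, its partners and CREB are the classic route. FOS and JUN proteins pair to form the AP-1 transcription factor, EGR1 and NR4A1 are further transcription factors, ATF3 is a stress-induced member of the ATF and CREB family, and DUSP1 is a phosphatase that switches MAP kinases off again. In microglia these genes are also known to be induced by tissue dissociation and sorting, above all when enzymes are used at warm temperature, so they are often read as a measure of handling stress.

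CREB binds the cyclic AMP response element (CRE), TGACGTCA, or its core TGACG. Promoters were available for 8 of the 10 members (RefSeq, GRCm38.p6), all but Egr1 and Ier2. The 250 bases before each start were searched on both strands. The core was present in 6 of the 8, namely Fos, Fosb, Junb, Atf3, Nr4a1 and Dusp1, and in 17.8% of 32544 promoters searched the same way. The full CRE, which holds the core on each strand, was present in Dusp1 and in 1.55% of promoters. The TATA box TATAAA was found in Fos, 33 to 28 bases before the start, and in 12.3% of promoters. None of the 8 windows held the AP-1 site TGANTCA, the EGR site GCGTGGGCG or a CArG box, the site of serum response factor. Of all promoters 6.73%, 0.541% and 1.48% held them, in that order. Egr1, Ier2 and bases farther upstream were not searched, so the members were not shown to lack these sites. These are matches of letters in a short window and not measured binding sites. The sequences below show stretches of 150 bases outside annotated exons, with CRE, core and TATA box letters in capitals. Dusp1 is shown for the full CRE, Fos and Nr4a1 as the pair with the highest co-variation, Junb as the most abundant member per length and Jun as one with none of these letters.
Dusp1 (chr17:26508520-26508669, minus strand): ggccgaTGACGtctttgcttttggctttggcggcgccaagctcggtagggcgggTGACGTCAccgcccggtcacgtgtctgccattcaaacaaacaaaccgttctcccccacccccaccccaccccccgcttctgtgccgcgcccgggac
Fos (chr12:85473740-85473889, plus strand): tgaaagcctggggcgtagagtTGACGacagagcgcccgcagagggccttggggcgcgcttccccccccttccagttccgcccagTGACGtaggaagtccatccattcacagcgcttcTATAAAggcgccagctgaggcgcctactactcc
Nr4a1 (chr15:101266696-101266845, plus strand): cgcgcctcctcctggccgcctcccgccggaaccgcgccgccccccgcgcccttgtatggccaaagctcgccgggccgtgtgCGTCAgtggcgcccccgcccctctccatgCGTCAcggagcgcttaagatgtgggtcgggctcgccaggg
Junb (chr8:84978749-84978898, minus strand): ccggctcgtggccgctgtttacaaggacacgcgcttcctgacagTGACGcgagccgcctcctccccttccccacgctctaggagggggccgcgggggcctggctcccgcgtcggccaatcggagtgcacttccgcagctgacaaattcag
Jun (chr4:95052223-95052372, minus strand): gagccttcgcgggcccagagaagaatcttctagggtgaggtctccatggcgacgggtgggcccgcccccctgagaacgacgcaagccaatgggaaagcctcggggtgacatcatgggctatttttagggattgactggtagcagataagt

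Library totals ran from 7882182 to 22142972 counts. Levels are CPM, counts relative to the library size after TMM scaling, given as mean ± SD over 4 libraries. Ercc1, the targeted gene, was at 2.82 to 4.54 CPM in 6-week KO and at 13.5 to 30.6 CPM in 6-week WT, and at 0.425 to 6.77 CPM in 12-week KO and 7.46 to 49.2 CPM in 12-week WT, so no KO library reached a WT library of its age. The male-labelled 12-week WT library 5_6 held both Xist (339.5 CPM) and Y-chromosome transcripts (109.4 CPM), which goes against its label. Female-labelled 12-week KO replicate 3 held 9.85 CPM of Y-chromosome transcripts, against at most 0.114 CPM in the other female-labelled libraries. Male-labelled 12-week WT replicate 4 held 11.5 CPM of Xist, against at most 1.52 CPM in the other male-labelled libraries besides 5_6. Replicates differed most in 12-week WT, with a chi-square per gene between pairs of 32.9 to 61.3, against 15.997 to 37.4 in the other groups, and results are also given without its libraries 3 and 8 together. All 12 listed microglia markers averaged at least 1 CPM, but their summed level, over 11 of them, was lower in every KO library, at 39121 to 46316 CPM in 6-week KO and 50378 to 53318 CPM in 6-week WT, and at 28659 to 34152 CPM in 12-week KO and 43372 to 49238 CPM in 12-week WT. Of the 12, P2ry12 fell at 6 weeks (log2 change -0.40 ± 0.08, edgeR adjusted p = 0.0185), and P2ry12, Gpr34 and Cx3cr1 fell at 12 weeks (log2 changes of -0.81 ± 0.08, -0.73 ± 0.10 and -0.48 ± 0.08). The summed markers of border-associated macrophages, all 9 of them detected, were higher in KO, at 146 to 322 CPM in 6-week KO and 56.4 to 98.8 CPM in 6-week WT, and at 125 to 198 CPM in 12-week KO and 13.4 to 57.1 CPM in 12-week WT. The 6 summed monocyte markers were at 9.37 to 36.7 CPM in 6-week KO and 6.17 to 18.7 CPM in 6-week WT, and at 14.9 to 31.6 CPM in 12-week KO and 1.08 to 11.4 CPM in 12-week WT, with Ccr2 highest at a mean of 8.17 CPM and 3 of the 6 under 1 CPM. The 5 summed erythroid markers were at 2.45 to 55.1 CPM in 6-week KO and 9.71 to 50.3 CPM in 6-week WT, and at 13.2 to 110.1 CPM in 12-week KO and 2.38 to 34.2 CPM in 12-week WT. All 9 lymphocyte markers averaged under 1 CPM. Of 9 neutrophil markers 7 averaged under 1 CPM, Ly6g and Mmp8 with no count, and Csf3r was highest at 483 CPM. Summed neuron markers were at 604 to 1149 CPM in 6-week KO and 870 to 1775 CPM in 6-week WT. Most of this sum was Meg3, at a mean of 1026 CPM over the 16 libraries. At 12 weeks the neuron sums were at 738 to 1312 CPM in KO and 1053 to 1745 CPM in WT. Astrocyte and oligodendrocyte lineage sums reached 435 CPM (6-week WT) and 353 CPM (12-week WT) and overlapped between genotypes at both ages. Their highest genes were Slc1a3, at a mean of 307 CPM over the 16 libraries, and Cnp at 98.4 CPM. Summed endothelial and mural markers were at 12.2 to 36.3 CPM in 6-week KO and 44.9 to 76.4 CPM in 6-week WT. At 12 weeks they were at 26.7 to 35.4 CPM in KO and 12.9 to 55.5 CPM in WT. The mitochondrial share of counts was 0.328% to 0.405% in 6-week KO and 0.182% to 0.253% in 6-week WT. At 12 weeks it was 0.491% to 0.680% in KO and 0.276% to 0.385% in WT. The part of these cell type markers and of the mitochondrial share in the genotype differences below was not tested. In bulk RNA, more cells that express a gene and more RNA of it per cell cannot be told apart.

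Most members were present at modest levels, and JUN family transcripts far outweighed FOS family transcripts. Per kilobase of exon, averaged over the 16 libraries, Junb stood at 66.5 CPM per kb and Jun at 40.3, above 95.7% and 92.7% of the tested genes. Ier2, a small nuclear regulator, followed at 21.7 and Atf3 at 12.3 CPM per kb. Dusp1 at 2.83, Egr1 at 2.51, Nr4a1 at 1.68, Jund at 1.67 and Fos at 1.38 CPM per kb all lay below the median of tested genes, 3.45 CPM per kb. Fosb had 0.0675 CPM per kb. Exon lengths came from an annotation of the previous mouse build.

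The question of the genotype comparisons was whether KO microglia carried more immediate early RNA than WT microglia at the same age. Of the 9 members that passed the filter on low counts, 1 passed the test, Atf3, which was higher in KO at 12 weeks. Egr1, Atf3, Dusp1, Ier2 and Fos had higher means in KO at both ages, and Jund had a lower mean in KO at both, but none of these other differences passed. At 6 weeks 0 of 9 members passed, against 0.872% of the 17090 tested genes, and at 12 weeks 1 of 9 passed, against 2.98% of tested genes.

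**Figure D1:**
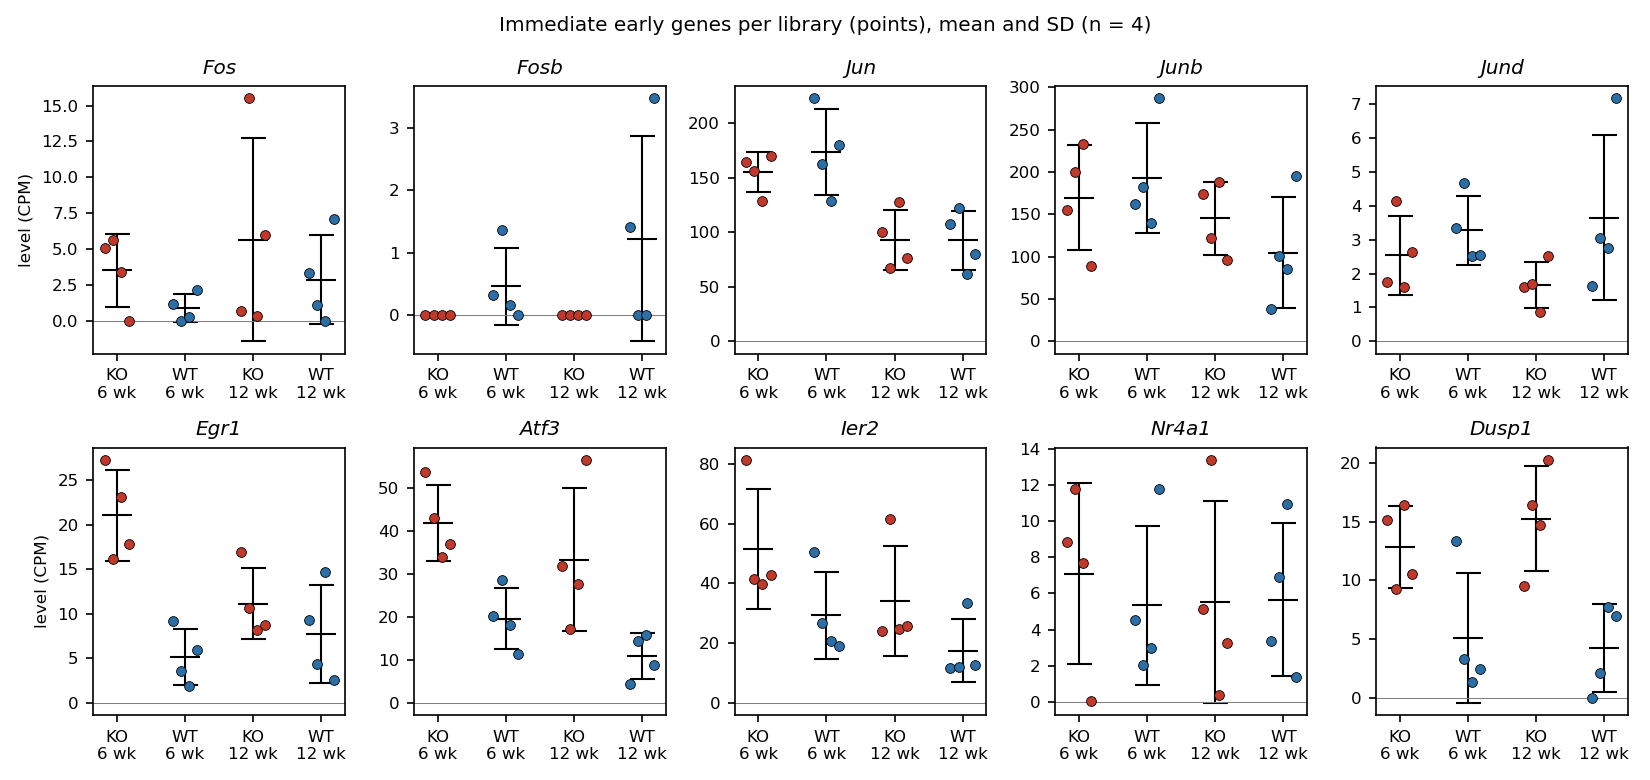
Level of the 10 members (y axis, CPM, a linear scale of its own in each panel) in each library (points), with KO left of WT at 6 and at 12 weeks, and the mean and SD of each group (bars, n = 4). Egr1 at 6 weeks, Dusp1 at 12 weeks and Atf3 at both ages show KO points all above WT points, and Fosb is at 0 in the 8 KO libraries.

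Atf3 encodes a transcription factor induced by many stresses, including DNA damage and amino acid shortage. In 6-week KO replicates 1 to 4 it had 53.8, 42.9, 33.8 and 36.9 CPM, against 20.3, 28.7, 18.1 and 11.3 CPM in 6-week WT replicates 1 to 4. In 12-week KO replicates 1 to 4 it had 31.9, 17.2, 27.6 and 56.5 CPM, against 4.43, 14.4, 15.8 and 8.86 CPM in 12-week WT replicates 3, 4, 5_6 and 8. Every KO library lay above every WT library at both ages, although at 12 weeks the lowest KO value was close to the highest WT value. The means were 41.8 ± 8.80 CPM in KO and 19.6 ± 7.16 CPM in WT at 6 weeks, a log2 change of 1.06 ± 0.41 (SE) that did not pass (edgeR quasi-likelihood test, Benjamini-Hochberg adjusted p = 0.486). At 12 weeks they were 33.3 ± 16.7 CPM in KO and 10.9 ± 5.25 CPM in WT, and Atf3 rose by 1.63 ± 0.42 on the log2 scale (edgeR adjusted p = 0.0479). The change kept its sign in all 25 alternatives, from 1.15 to 1.88, but passed in 9 of them. With 1 library left out it passed without 6-week WT replicate 2 or 4, 12-week WT library 5_6 or 12-week KO replicate 2, and missed the threshold without any of the other 12 (adjusted p from 0.0566 to 0.16). Leaving out 12-week WT libraries 3 and 8 gave 1.15 ± 0.46 (adjusted p = 0.306), and leaving out library 5_6 gave 1.87 ± 0.46 (adjusted p = 0.0477). The Atf3 effect was not shown to differ between ages, with a difference of 0.57 ± 0.58 (12 minus 6 weeks, adjusted p = 1).

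Egr1, a zinc finger transcription factor downstream of ERK and serum response factor, was highest in 6-week KO. Replicates 1 to 4 had 27.3, 16.1, 23.0 and 17.8 CPM in 6-week KO and 9.16, 3.54, 1.90 and 5.95 CPM in 6-week WT. The groups did not overlap, and the means were 21.0 ± 5.10 CPM in KO and 5.14 ± 3.16 CPM in WT. The log2 change of 2.13 ± 0.54 had an unadjusted p of 0.00133 and an adjusted p of 0.106 in edgeR, so it missed the threshold over all genes. It passed in 6 of 25 alternatives, DESeq2 (adjusted p = 0.00398) and the fit to the 6-week libraries alone (adjusted p = 0.0361) among them. At 12 weeks the groups overlapped, with 16.9, 10.6, 8.12 and 8.77 CPM in KO replicates 1 to 4 and 9.30, 4.37, 14.7 and 2.53 CPM in WT replicates 3, 4, 5_6 and 8. Library 5_6, which went against its sex label, was the highest WT library, and the log2 change was 0.46 ± 0.52 with it (edgeR adjusted p = 0.806) and 0.95 ± 0.57 without it (adjusted p = 0.504). The genotype effect on Egr1 was 1.67 ± 0.75 smaller at 12 than at 6 weeks on the log2 scale, with an unadjusted p of 0.0408 and an adjusted p of 1, and so was not shown to differ between ages; 0.00585% of tested genes passed that comparison and none of the 9 members did.

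Dusp1, the phosphatase that ends MAP kinase signals, had 15.2, 9.26, 16.4 and 10.6 CPM in 6-week KO replicates 1 to 4 and 13.4, 3.31, 1.34 and 2.43 CPM in 6-week WT replicates 1 to 4. WT replicate 1 lay within the KO range and the other 3 WT libraries below it. At 12 weeks Dusp1 had 9.50, 16.5, 14.8 and 20.3 CPM in KO and 0, 2.09, 7.76 and 6.96 CPM in WT, with no overlap. The log2 changes were 1.63 ± 0.85 at 6 weeks (edgeR adjusted p = 0.768) and 2.16 ± 0.87 at 12 weeks (adjusted p = 0.249), and neither passed. Ier2 had means of 51.4 ± 20.05 CPM in KO and 29.3 ± 14.6 CPM in WT at 6 weeks, and 34.0 ± 18.4 CPM in KO and 17.4 ± 10.6 CPM in WT at 12 weeks. A single library stood well above the other 3 in 6-week KO, 12-week KO and 12-week WT. The ranges overlapped at both ages, at 6 weeks through WT replicate 1 at 50.6 CPM, above the KO minimum of 39.8 CPM, and at 12 weeks through WT library 5_6 at 33.4 CPM, above the KO minimum of 24.0 CPM. Its log2 changes were 0.81 ± 0.40 (edgeR adjusted p = 0.736) and 0.96 ± 0.40 (adjusted p = 0.27).

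Over all tested genes, 4.92% had every KO library above every WT library at 6 weeks and 5.13% at 12 weeks. Among the 9 tested members 2 did so at each age, Egr1 and Atf3 at 6 weeks and Atf3 and Dusp1 at 12 weeks.

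**Figure D2:**
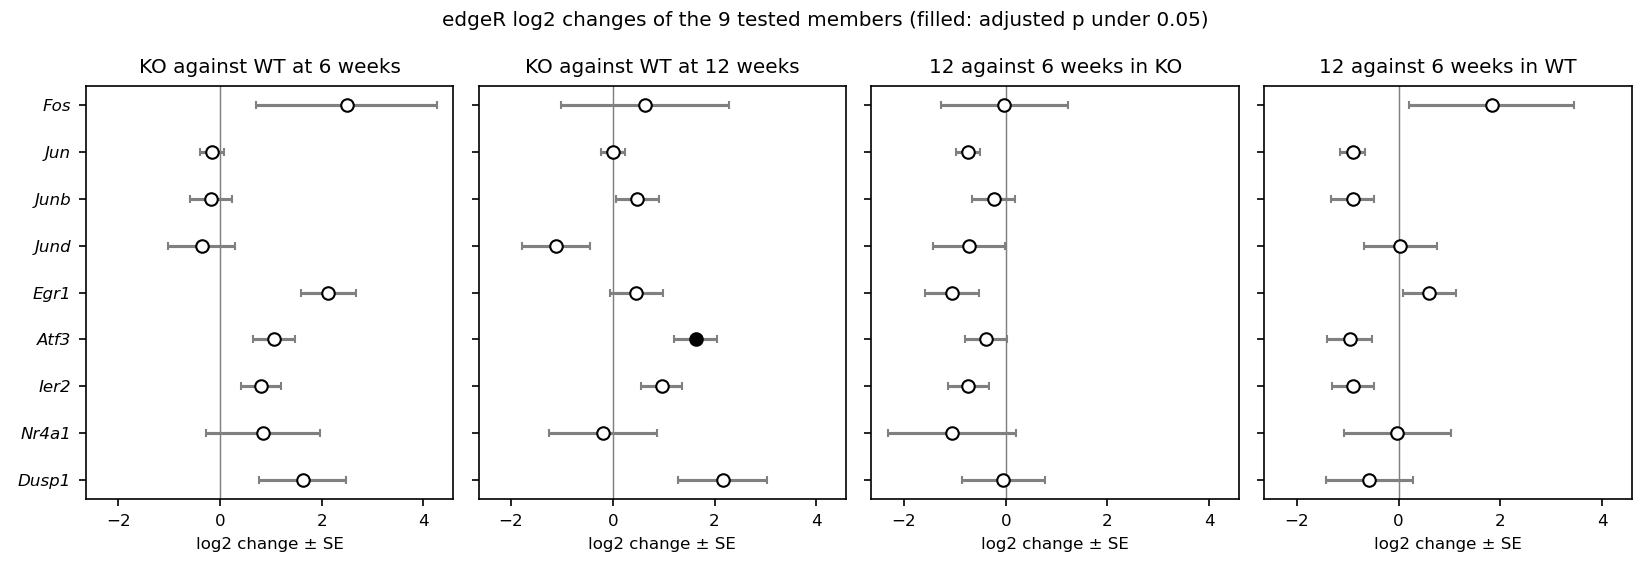
Log2 change with SE (x axis) of the 9 tested members (rows) in 4 comparisons (panels), from the edgeR model of all 16 libraries. The filled point, Atf3 in KO against WT at 12 weeks, is the one that passed. Jun lies near 0 in both genotype panels, at -0.16 and 0.0045. In both age panels Jun lies below 0, as do Junb, Atf3, Ier2, Nr4a1 and Dusp1.

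The FOS genes, whose products need a JUN partner to bind DNA, were sparse. Fos had 5.07, 5.63, 3.41 and 0 CPM in 6-week KO replicates 1 to 4, and 1.19, 0, 0.316 and 2.18 CPM in 6-week WT. At 12 weeks it had 0.707, 15.5, 0.369 and 6.02 CPM in KO and 3.35, 1.14, 0 and 7.07 CPM in WT. Libraries of every group lay near 0, and the largest count of any library was 146. The log2 changes of Fos in KO against WT were 2.49 ± 1.77 at 6 weeks (edgeR adjusted p = 0.933) and 0.63 ± 1.65 at 12 weeks (adjusted p = 0.935), and neither passed. Libraries of like depth differed widely. In 6-week KO replicate 2 had 98 Fos counts of 17499065, and replicate 4 had 0 of 17499408. Fosb did not pass the filter on low counts. It had no count in any of the 8 KO libraries, 17 counts over 3 of the 6-week WT libraries and 46 counts over 2 of the 12-week WT libraries. Against a floor of 3 counts over the group, Fosb was at least 7.92-fold lower in KO at 6 weeks and at least 10.4-fold lower at 12 weeks. Without the WT library with most counts, replicate 2 at 6 weeks and replicate 8 at 12 weeks, these bounds were 3.01-fold and 3.60-fold. Tested with no filter on low counts, Fosb did not pass at either age (edgeR adjusted p = 0.409 and 0.106), and since 2 of 4 12-week WT libraries were also at 0, its ranges in KO and WT touched. The floor covers counting error only.

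Jun, the main FOS partner, varied least between replicates. Its means were lower at 12 than at 6 weeks in both genotypes, as were those of Junb, Atf3 and Ier2. In KO replicates 1 to 4 Jun had 100.7, 67.3, 128 and 76.1 CPM at 12 weeks, against 165, 156, 129 and 170.4 CPM at 6 weeks. In WT it had 108, 122, 61.6 and 79.7 CPM at 12 weeks (replicates 3, 4, 5_6 and 8), against 223, 162, 129 and 179.98 CPM at 6 weeks (replicates 1 to 4). The 12-week libraries all lay below the 6-week libraries of their genotype, in KO by a narrow margin. The log2 change of Jun at 12 against 6 weeks was -0.74 ± 0.24 in KO (edgeR adjusted p = 0.34) and -0.90 ± 0.24 in WT (adjusted p = 0.351), so neither passed over all genes. For Junb, Atf3 and Ier2 it was -0.24 ± 0.42, -0.39 ± 0.41 and -0.74 ± 0.40 in KO. In WT it was -0.90 ± 0.42, -0.96 ± 0.44 and -0.90 ± 0.41 (edgeR adjusted p = 0.675, 0.661 and 0.657). DESeq2 called Jun lower with age in WT (adjusted p = 0.0278), and edgeR with no filter on low counts called it in both genotypes (adjusted p = 0.0308 in KO and 0.00143 in WT). Complete separation in this direction was seen in 3.51% of tested genes in KO and 3.0% in WT, and Jun was the one member to show it. With the filter, 0 of 9 members passed in either age comparison, against 0.0234% of tested genes in KO and 0.0117% in WT. Age groups were not balanced for labelled sex, and the model carried a term of labelled sex that took library 5_6 as male. In female against male 0 of 9 members passed, against 0.0293% of tested genes.

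Junb had means of 169 ± 62.0 CPM in KO and 193 ± 65.1 CPM in WT at 6 weeks, and 145 ± 43.4 CPM in KO and 105 ± 65.7 CPM in WT at 12 weeks. Its values spanned 38.1 CPM in 12-week WT replicate 3 to 287 CPM in 6-week WT replicate 4, and all 4 groups overlapped. Jund, usually the constitutive JUN gene, had only 2.53 ± 1.16 CPM in KO and 3.28 ± 1.01 CPM in WT at 6 weeks, and 1.67 ± 0.673 CPM in KO and 3.65 ± 2.43 CPM in WT at 12 weeks. The Jund change at 12 weeks was -1.11 ± 0.67 (edgeR adjusted p = 0.505). Exons of Jun, Junb, Jund and Dusp1 share 232, 173, 877 and 11 bases with genes on the other strand (Junos, Prdx2, Gm11175 and Ergic1). The strand setting of the counting is not given in the sources used here, so these 4 levels are uncertain, that of Jund most, with 877 of 1668 exon bases shared.

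Nr4a1, an orphan nuclear receptor, averaged 7.10 ± 4.9996 CPM in 6-week KO, 5.34 ± 4.41 CPM in 6-week WT, 5.54 ± 5.59 CPM in 12-week KO and 5.66 ± 4.22 CPM in 12-week WT. Its libraries ran from 0.0575 to 13.4 CPM in KO and from 1.37 to 11.8 CPM in WT, and no comparison passed. Ordered by their means, neighbouring groups overlapped for every member with the single exception of Jun between 12-week and 6-week KO.

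Variation between replicates was wide for several members. The biological coefficient of variation was 1.44 for Fos, 0.973 for Nr4a1, 0.757 for Dusp1, 0.511 for Egr1, 0.403 for Atf3, 0.401 for Junb, 0.394 for Ier2 and 0.246 for Jun. It exceeded the trend of genes at the same abundance in 7 of 9 members, against 39.1% of all tested genes. Junb at 0.401 stood furthest over its trend of 0.219 in ratio, and Jund at 0.604 was under its trend of 1.00.

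Whether the members deviated together within groups, library by library, was measured over all 45 pairs. Group means were removed from log2 CPM, and the pairs had a median Pearson r of 0.0182, with 23 of 45 positive, against a median of 0.002 over all pairs of tested genes. The 45 pairs include those of Fosb, which did not pass the filter. Over the 36 pairs of the 9 tested members the median was 0.0440, a value added after seeing the data. Values over the 45 pairs ran from -0.413 (Jund with Egr1) to 0.538 (Fos with Nr4a1). No pair passed after Benjamini-Hochberg adjustment over the 45 pairs, by r or by Spearman's rho (permutation within groups, n = 16), and 1 pair had an unadjusted permutation p of r under 0.05. That pair was Fosb with Nr4a1, with r = -0.40 and rho = -0.43 (permutation p = 0.0102 and 0.06, adjusted 0.459 and 0.896), and it rests on the few libraries with Fosb counts.

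The 5 pairs with r over 0.5 made up 11.1% of the 45, against 5.10% of all pairs of tested genes. None of the 5 holds Fosb, so all are among the 36 pairs of tested members. Fos with Nr4a1 had r = 0.54 and rho = 0.50 (permutation p = 0.0759 and 0.086, adjusted 0.826 and 0.896), and r = 0.57 without the 2 libraries farthest from the median of Fos. Its r depended on single libraries, running from 0.25 without 6-week KO replicate 4 to 0.76 when 1 library was left out. Taken group by group, this pair had r = -0.933 among the 12-week WT libraries, while every other group was positive, from 0.756 to 0.998. Ier2 with Dusp1 had r = 0.52 and rho = 0.67 (permutation p = 0.112 and 0.0151, adjusted 0.826 and 0.68), and r = 0.46 without 2 libraries. Egr1 with Ier2 had r = 0.54 and rho = 0.26 (permutation p = 0.0773 and 0.452, adjusted 0.826 and 0.896), and r = 0.40 without 2 libraries. Atf3 with Dusp1 had r = 0.54 and rho = 0.44 (permutation p = 0.129 and 0.144, adjusted 0.826 and 0.896). Without 12-week WT replicate 3 and 12-week KO replicate 4, r was 0.0063. Without 12-week WT replicate 3 alone, where Dusp1 had 0 counts, r was 0.11, so the relation rests mainly on that library. Junb with Dusp1, at r = 0.51 and rho = 0.11 (permutation p = 0.234 and 0.715, adjusted 0.826 and 0.968), turned to r = -0.13 without 12-week WT replicates 3 and 8. Its r was -0.0097 without replicate 3 alone. The heterodimer partners Fos and Jun had r = -0.10 and rho = -0.20 (permutation p = 0.734 and 0.51, adjusted 0.995 and 0.917).

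**Figure D3:**
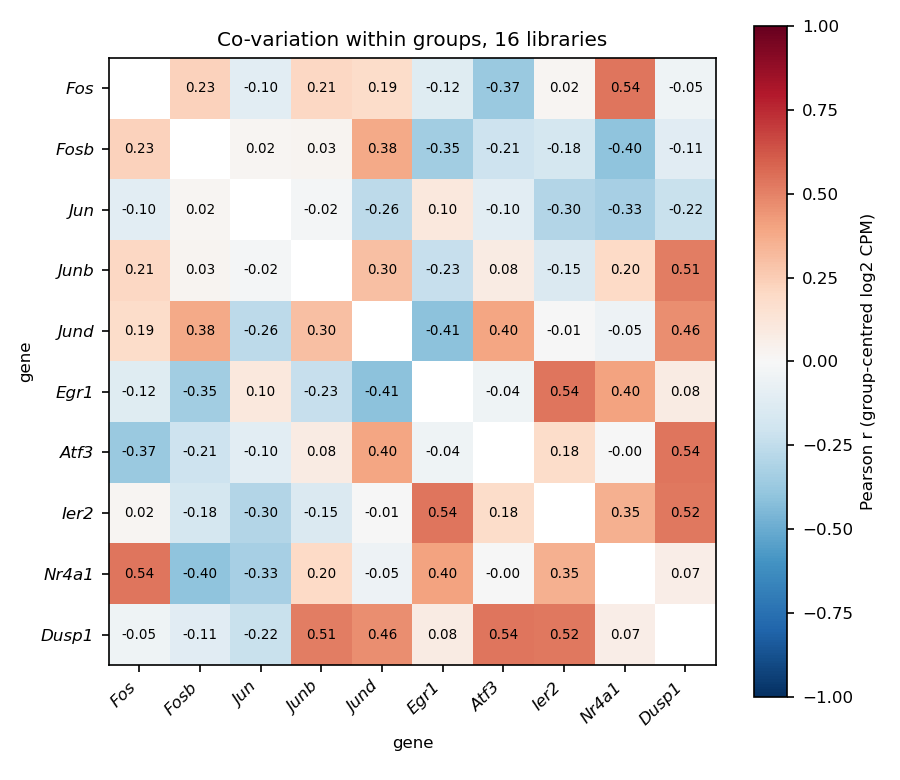
Pearson r (colour and number) of log2 CPM between each pair of members (rows and columns) after removal of the 4 group means, over 16 libraries. Positive and negative cells are about equally frequent, 23 of 45 pairs being positive, and 5 pairs exceed 0.5.

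Among genes of at least 5 CPM outside the members, those most like the members' mean deviation were Cmc2 (r = 0.93), Rbm10 (0.89), Uqcc3 (0.87), Rbm19, Ppp1r13b, S100a1, Plekha5, Gnb2, Ccdc9 and Mtor (0.79), over 16 libraries. These are the highest values among all genes that met this minimum and are given as a description. None of the other tested immediate early and early response genes was among them. With so few places among so many genes, their absence says little. For single members the most alike genes were Trip11 for Fos (r = 0.82), Chmp3 for Jun (0.82), Ppfia4 for Junb (0.91), Ski for Jund (0.89), Slc17a5 for Egr1 (0.84), Rex1bd for Atf3 (0.84), Rab7-ps1 for Ier2 (0.80), Slc16a10 for Nr4a1 (0.91) and Mief2 for Dusp1 (0.90).

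Genes of the wider early-response programme that passed in KO against WT went in both directions. Of 40 other immediate early and early response genes tested, 0 passed at 6 weeks, against 0.872% of all tested genes, and 4 at 12 weeks, 2 in each direction, against 2.98% of all tested genes. Nfkbia, the inhibitor that NF-kB induces against itself, rose to 213 ± 30.7 CPM in 12-week KO, against 95.8 ± 13.4 CPM in 12-week WT (edgeR adjusted p = 0.000605). Myc also rose (81.0 ± 7.10 CPM in KO and 49.8 ± 8.55 CPM in WT, edgeR adjusted p = 0.022). Rhob, a small GTPase, fell to 171 ± 37.6 CPM in KO, against 363 ± 74.5 CPM in WT (edgeR adjusted p = 0.00659), and Gadd45g, a stress-response gene, fell to 29.5 ± 5.60 CPM in KO, against 52.5 ± 6.57 CPM in WT (adjusted p = 0.02). The median log2 change of the 40 was 0.02 at 6 weeks and -0.29 at 12 weeks, and that of all tested genes -0.02 and -0.03. Egr2, a relative of Egr1 named here after its values were seen, had 19.9 ± 9.21 CPM in KO and 4.79 ± 4.49 CPM in WT at 6 weeks (edgeR adjusted p = 0.67), and 28.2 ± 18.8 CPM in KO and 2.52 ± 3.20 CPM in WT at 12 weeks (adjusted p = 0.107), and passed at neither age.

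Of 15 other AP-1, ATF and CREB factors, 5 other MAP kinase phosphatases and 28 MAP kinases and factors upstream of the members, 0 passed at either age. Their median log2 changes, in that order, were -0.06, -0.08 and 0.03 at 6 weeks and -0.05, -0.48 and -0.12 at 12 weeks. Of all tested genes, 0.872% passed at 6 weeks and 2.98% at 12 weeks, so a count of 0 in lists this small says little. Heat shock and chaperone genes, which respond to protein damage and warming, had 0 of 13 past the threshold at either age, beside the same shares of all tested genes. Their median log2 changes were 0.01 and -0.18. Their summed level was 1303 to 1496 CPM in 6-week KO and 1149 to 1443 CPM in 6-week WT, and 1026 to 1417 CPM in 12-week KO and 1018 to 1423 CPM in 12-week WT. Hspa1a, an inducible HSP70 gene and also named after its values were seen, averaged 0.359 ± 0.544 CPM in KO and 0.473 ± 0.751 CPM in WT at 6 weeks. At 12 weeks it averaged 1.97 ± 2.33 CPM in KO and 0.482 ± 0.965 CPM in WT. Hspa1b, named in the same way, averaged 0.101 CPM in 6-week KO, 0.231 in 6-week WT, 0.732 in 12-week KO and 0.541 in 12-week WT. How reads that match several genes were counted is not given in the sources used, so the low levels of both are uncertain.

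NF-kB feedback and cytokine genes known from ex vivo activation of microglia had 6 of 17 members higher in KO at 6 weeks and 8 of 17 at 12 weeks, and 0 lower, with median log2 changes of 0.77 and 1.15, where 0.872% and 2.98% of all tested genes passed in either direction. Nfkbia, called at 12 weeks, belongs both to this list and to the list of 40 above. Ccl4, a chemokine, rose to 141 ± 20.2 CPM in 6-week KO, against 27.6 ± 7.96 CPM in 6-week WT, a log2 change of 2.35 ± 0.23 (edgeR adjusted p = 6.26e-05). At 12 weeks it stood at 237 ± 44.5 CPM in KO and 23.6 ± 5.01 CPM in WT, a log2 change of 3.33 ± 0.24 (adjusted p = 8.23e-07). Ccl3 changed by 3.04 ± 0.42 and 3.39 ± 0.42 at the 2 ages, Cd83, a surface protein of activated myeloid cells, by 1.48 ± 0.21 and 1.92 ± 0.21, and Ccl2 by 2.57 ± 0.49 and 3.27 ± 0.49, all past the threshold in edgeR. The list was chosen with earlier results of these data known, and its direction is not independent evidence. The difference between this list and the members was not tested.

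**Figure D4:**
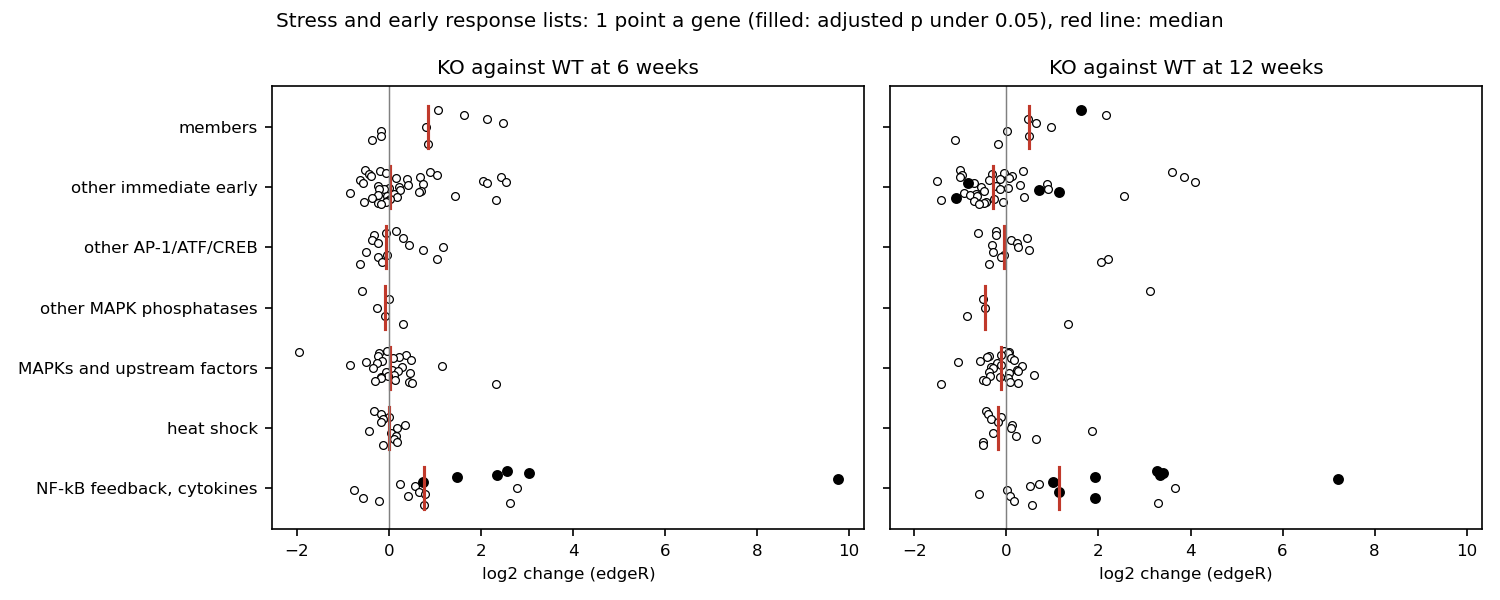
Log2 change in KO against WT (x axis, edgeR) of each tested gene (points, filled where the adjusted p was under 0.05) in the members and 6 related lists (rows), at 6 weeks (left) and 12 weeks (right), with the median of each list as a red line. Filled points lie mainly in the NF-kB and cytokine row, with 6 and 8 of 17 genes. There are none in the AP-1, MAP kinase phosphatase, MAP kinase and heat shock rows.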

How the data were processed

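RNA-seq counts of 16 libraries of sorted mouse microglia were used. The authors deposited raw counts per gene and library; per the submitters' processing notes the tools included HTSeq 0.11.0, TopHat and cutadapt 2.10, on GRCm39. For annotation release, strand setting and multimapping, the setting is not given in the sources used. The members' 160 values equalled those in the deposited table of the whole series. Replicate pairs were checked for duplicates (smallest chi-square per gene 15.997), and none was merged.

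The members, lists, tests and naming rule were chosen with earlier results of these data known. All 10 members are named. Of lists, up to 4 genes past the threshold with the smallest p are named per comparison, besides those said to be named after their values were seen. Genes were kept with filterByExpr (minimum count 10, 17090 genes), scaled by TMM and fitted with edgeR 4.0.16 (robust quasi-likelihood, R 4.3.3) on group and sex over 16 libraries, with 11 residual degrees of freedom. P-values are two-sided, adjusted by Benjamini-Hochberg over all tested genes, with a threshold of 0.05. SE is the log2 change over the root of F. The procedure was tested on simulated data. Co-variation used log2 CPM with a prior count of 2 and 100000 permutations within groups. Limma 3.58.1, DESeq2 1.42.0, other scalings and filters, left-out libraries and a replicate block were alternatives. Between 7882182 and 22142972 counts per library set the counting precision, and floors and counting errors do not cover PCR duplicates. The level of 1 marker gene is not reported here.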

Additional observations from a re-analysis of the deposited data

Results flagged for a closer look

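In 38 groups of 4 libraries checked for a single library far from the other 3, 4 were found, and chance flags about 1 in 20. Ier2 stood at 81.4 CPM in 6-week KO replicate 1, where the other 3 had 39.8 to 42.9 CPM. It stood at 61.6 CPM in 12-week KO replicate 2, where the others had 24.0 to 25.8 CPM. In 12-week WT library 5_6, which goes against its sex label, Ier2 was at 33.4 CPM, with the others at 11.8 to 12.6 CPM. Dusp1 was at 13.4 CPM in 6-week WT replicate 1, with the others at 1.34 to 3.31 CPM. Of these 4 values, 3 belong to Ier2, and its genotype changes passed at neither age.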

How the results depend on the processing

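Each comparison of 2 groups was recomputed under 25 alternatives. In KO against WT at 6 weeks the count of members past the threshold was 0, and 1 (Egr1) with no filter on low counts, with only the groups compared, without 12-week WT libraries 3 and 8, with limma voom and with DESeq2. Leaving out 1 library at a time gave 0 to 1, and 1 only without 12-week WT replicate 8. At 12 weeks the count was 1 (Atf3), but 3 with no filter on low counts (Atf3, Ier2 and Dusp1), 0 with only the groups compared, 0 without WT libraries 3 and 8, 0 with limma voom, and 0 to 1 leaving out 1 library at a time, with Atf3 lost in 12 of 16 such fits. With age the count was 0, and with no filter on low counts 1 in KO (Jun) and 2 in WT (Jun and Junb), and 1 in WT with DESeq2 (Jun). The cause of these shifts was not tested. Replicate numbers did not pair the libraries (r of same-numbered deviations from -0.0246 to 0.0623). With the number as a replicate block in place of sex, Atf3 at 12 weeks had 1.85 ± 0.57 (adjusted p = 0.19), 0 members passed, and Egr1 at 6 weeks had an adjusted p of 0.0558. The median r of pairs was 0.0182, -0.0013 with a prior count of 0.5, -0.0152 with group and sex removed, 0.0440 over the 9 tested members (added after seeing the data) and -0.0417 to 0.0902 leaving out 1 library at a time. Low counts of Fos, Fosb, Jund and Nr4a1, and the wide spread of Fos and Nr4a1 between replicates, limit what can be seen for them.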
